A study of Mus musculus with 14 samples.

Results

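The respiratory chain genes of microglia were followed across 14 RNA libraries of old mice, sorted here by the complex of the inner mitochondrial membrane that each gene product belongs to. Members were taken by gene symbol alone, and 76 of 24394 named genes in the deposited table matched. The symbol rule itself used no measured value, but it was chosen with earlier results of these data known. They comprise 36 genes of complex I, 4 of complex II, 9 of complex III, 10 of complex IV and 17 of complex V. The symbols Atp5s and Atp5sl match the pattern for complex V but are not subunits of the ATP synthase: Atp5s is a coupling factor, and the product of Atp5sl has been linked to the assembly of complex I. Ndufa4 carries a complex I name, although its product is now placed in complex IV. The 7 anti-CD22 libraries came from C57BL/6 mice of 18 months that were given an antibody blocking CD22, an inhibitory receptor for sialic acid, by osmotic pump into the cerebrospinal fluid for 1 month, and the 7 IgG libraries from mice of the same strain and age that were given a control IgG in the same way. The cells were living CD11b+ CD45lo cells, about 20000 per sample, sorted from the side of the brain opposite the cannula, so every mouse of either group carried an implanted pump and no group was left without an infusion. Whether the 7 libraries of a group stand for 7 animals is not in the labels, and p-values therefore cover the spread between libraries.

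The respiratory chain passes electrons from NADH through complex I, and from succinate through complex II, by way of ubiquinone to complex III, cytochrome c and complex IV, where oxygen is reduced. Complexes I, III and IV pump protons out of the matrix, and complex V, the ATP synthase, lets them flow back to make ATP. Complex II is encoded wholly in the nucleus, whereas the other complexes also hold subunits made from mitochondrial DNA, such as cytochrome b of complex III and the catalytic subunits of complex IV. For such genes of the mitochondrial genome the table held 0 entries, and they are not analysed here. Microglia, the resident macrophages of the brain, use both oxidative phosphorylation and glycolysis, and the balance between them is known to shift when the cells are activated.

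Between 20221836 and 38101421 reads per library fell on named genes, as far as whole reads could be recovered (13 libraries). The 8 microglial markers together made up 1696500 to 1830800 normalized counts in the anti-CD22 libraries and 1610390 to 1908980 in the IgG libraries. Summed astrocyte markers came to 6575 to 8426 in anti-CD22 libraries and 5876 to 8545 in IgG libraries, oligodendrocyte markers to 4949 to 5660 in anti-CD22 libraries and 5433 to 6707 in IgG libraries, and endothelial markers to 884 to 1235 in anti-CD22 libraries and 634 to 1216 in IgG libraries. Lymphocyte markers reached 30.8 in anti-CD22 libraries and 16.3 in IgG libraries. The endothelial gene Cldn5 and the lymphocyte genes Cd3e and Cd3g were listed at 0 in every library. Summed neutrophil markers had a median of 2096 normalized counts in anti-CD22 libraries and 1064 in IgG libraries. They reached 7595 in the highest anti-CD22 library and 40365 in IgG replicate 1, the next IgG library being at 11760. Border macrophage markers had medians of 804 in anti-CD22 and 421 in IgG libraries, with ranges of 232 to 2097 and 76.1 to 1336. The medians were 290 and 177 for monocyte markers and 55.4 and 53.8 for neuron markers, in the same order. Of 9 marker lists, 0 had a member past a limma adjusted p of 0.05, where 0.00859% of all genes tested passed. All 4 tested oligodendrocyte markers were lower in anti-CD22 libraries, 1 of them at an unadjusted limma p under 0.05. Of 5 tested border macrophage markers 0 were lower. Cd22 itself, which the antibody targets without deleting the gene, had a log2 fold change of 0.03. The libraries differed in how gene levels depended on transcript length: the Spearman correlation across genes between length and a library's deviation from the mean was 0.32, 0.29 and 0.33 in anti-CD22 replicates 1, 2 and 3, between -0.28 and 0.15 in the other 4 anti-CD22 libraries, and between -0.26 and 0.00 in the IgG libraries. Short transcripts were thus relatively low in those 3 anti-CD22 libraries, and the respiratory chain genes have short transcripts, with a median of 809 bases against 2843 for all genes tested. Many results below are therefore given also with the trend on length and GC content removed or without those 3 libraries, which were picked after seeing the data. Not every single gene is given with both values. In bulk RNA, fewer cells of a type and less RNA per cell cannot be told apart.

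Across all complexes, most respiratory chain genes had somewhat lower values after CD22 blockade, by a small amount that no single gene carried past the test. Of 75 members tested, 70 had a log2 fold change (anti-CD22 over IgG) below 0 and 5 above 0, with a median of -0.17 and a range from -0.42 to 0.20. The median over all 11646 genes tested was 0.00, and 49.8% of them lay below 0, against 93.3% of the members. The number of members past an adjusted p of 0.05 by limma was 0, where 0.00859% of all genes passed, and the smallest adjusted p of a member was 0.235. At an unadjusted p under 0.05 there were 19 lower members (25.3%), where 5.95% of all genes passed in that direction, and 0 higher members, where 6.8% passed. On the 13 libraries with recovered reads, DESeq2 called 0 members (0.41% of genes with an adjusted p) and had 12 lower members at an unadjusted p under 0.05 (4.49% of all genes), with 7 members given no adjusted p. On the same reads edgeR called 0 members (0% of genes) and had 11 lower members at an unadjusted p under 0.05 (3.68% of all genes). In 0 members did the groups fail to overlap, as against 0.12% of all genes that were lower without overlap.

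These counts moved with the trend and with single libraries. With the length and GC trend removed, 62 members lay below 0 and 13 above, where 53.6% of all genes lay below 0, and the median was -0.08. The lower members at an unadjusted p under 0.05 then numbered 4 (5.33%), close to the 4.97% of all genes. The higher members at that threshold numbered 1, where 467 of 11582 genes passed in that direction. Without anti-CD22 replicates 1, 2 and 3, 65 of 75 members lay below 0, with a median of -0.07, and 0 reached an unadjusted p under 0.05, where 2.51% of all genes did in that direction. The count of 19 became 9 without anti-CD22 replicate 1 (4.20% of all genes in the same fit), 10 without replicate 2 (4.19%), 12 without replicate 3 (4.16%) and 33 without replicate 7 (7.39%). It became 12 without IgG replicate 6 (4.47%) and 10 without IgG replicate 7 (5.87%). Over all 14 fits that left out a single library, the number below 0 stayed between 66 and 70, and 0 members passed the adjusted threshold in any of them.

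**Figure D1:**
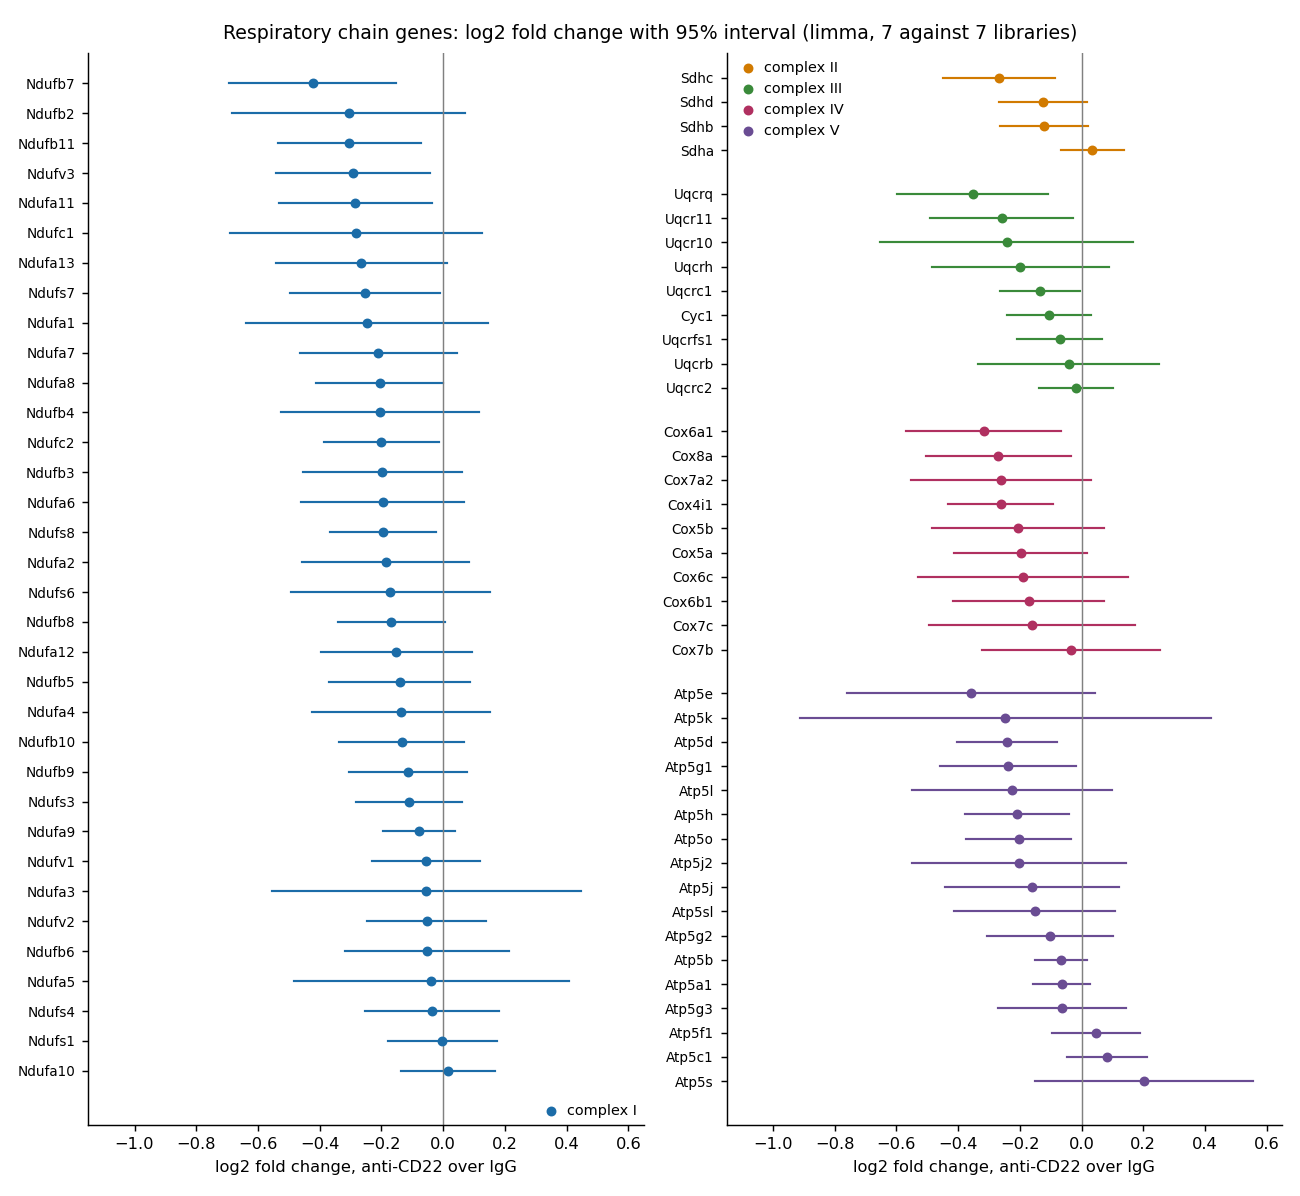
Each point is the log2 fold change of a respiratory chain gene, anti-CD22 over IgG, with its 95% interval from limma (7 against 7 libraries), complex I on the left and complexes II to V on the right, each sorted from the lowest value, with 1 gene that is not reported here left out. Nearly all points lie left of 0, from -0.42 for Ndufb7 to 0.20 for Atp5s, and 5 lie right of it.

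Many nuclear respiratory chain genes are known to be driven by NRF1, by GABP (also called NRF2) and, in part, by YY1, and their promoters were read for short forms of those motifs. RefSeq promoters (GRCm38.p6, 250 bases before to 50 after each start) were found for 61 of the 76 members, and each motif was searched on both strands. The NRF1 motif GCGCATGC was present in 10 of the 61 members (16.4%), against 3.05% of all 27025 genes in that table and 6.38% of tested genes. The YY1 motif AAGATGGC was present in 9 members (14.8%), against 3.19% of all genes and 5.66% of tested genes. The GABP motif CCGGAAGT was present in 5 members (8.20%), against 4.31% of all genes and 9.74% of tested genes, so it was no more frequent in members than in tested genes. Any of the 3 was present in 23 members (37.7%), against 20.1% of tested genes. The median log2 fold change was -0.20 over the 23 members with a motif and -0.19 over the 37 tested members with a promoter and none. The sequences below are the 250 bases before the start of a member of each complex, the one with the smallest p among those with a motif there, with the motif in capitals, and show where such a motif lies. Those of Ndufa11 (chr17:56717512-56717761, plus strand), Sdhb (chr4:140961021-140961270, plus strand) and Cox6a1 (chr5:115348959-115349208, minus strand) hold the NRF1 motif, which in Ndufa11 and Cox6a1 matches on both strands in overlapping positions. Those of Uqcr11 (chr10:80406822-80407071, minus strand) and Atp5h (chr11:115419920-115420169, minus strand) hold the GABP motif, on the opposite strand in Atp5h.
Ndufa11: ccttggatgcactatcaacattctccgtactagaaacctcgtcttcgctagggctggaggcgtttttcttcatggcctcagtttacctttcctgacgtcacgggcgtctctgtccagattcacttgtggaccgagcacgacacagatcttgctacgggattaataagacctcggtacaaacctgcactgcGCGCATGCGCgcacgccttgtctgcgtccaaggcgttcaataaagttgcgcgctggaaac
Sdhb: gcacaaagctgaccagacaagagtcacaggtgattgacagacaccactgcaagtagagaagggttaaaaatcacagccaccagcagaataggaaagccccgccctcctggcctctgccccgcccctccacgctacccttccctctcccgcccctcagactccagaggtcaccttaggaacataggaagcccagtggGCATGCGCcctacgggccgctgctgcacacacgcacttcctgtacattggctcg
Uqcr11: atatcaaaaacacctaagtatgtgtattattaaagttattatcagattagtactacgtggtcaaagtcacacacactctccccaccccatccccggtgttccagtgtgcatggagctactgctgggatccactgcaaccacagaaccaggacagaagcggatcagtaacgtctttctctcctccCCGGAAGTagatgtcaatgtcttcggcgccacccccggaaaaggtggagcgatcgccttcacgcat
Cox6a1: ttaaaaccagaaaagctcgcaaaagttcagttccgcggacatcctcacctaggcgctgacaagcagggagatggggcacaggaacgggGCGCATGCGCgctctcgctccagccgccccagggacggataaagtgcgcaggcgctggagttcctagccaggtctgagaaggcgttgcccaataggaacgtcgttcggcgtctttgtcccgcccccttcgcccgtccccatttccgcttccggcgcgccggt
Atp5h: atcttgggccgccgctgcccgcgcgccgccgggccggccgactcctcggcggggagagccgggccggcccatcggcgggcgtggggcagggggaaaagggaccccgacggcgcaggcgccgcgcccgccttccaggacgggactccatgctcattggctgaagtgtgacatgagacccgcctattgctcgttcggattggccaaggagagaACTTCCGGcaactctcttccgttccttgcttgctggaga
A match is a run of letters and not a measured binding site. The motif begins 60 bases before the start in Ndufa11, 54 in Sdhb, 66 in Uqcr11, 162 in Cox6a1 and 39 in Atp5h.

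Complex I takes electrons from NADH through a matrix arm that carries the flavin and the iron-sulfur clusters and pumps protons through a membrane arm. Of its 35 tested members, 34 lay below 0, at a median log2 fold change of -0.17, or -0.08 with the trend removed and -0.07 without anti-CD22 replicates 1, 2 and 3. By place, the median was -0.20 over 18 accessory subunits of the membrane arm, -0.17 over 9 accessory subunits of the matrix arm and -0.06 over the 7 core subunits of the matrix arm. These groups differ in transcript length, with medians of 693.5, 875 and 1623 bases in that order, and the difference between places was not tested.

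Ndufb7, an accessory subunit of the membrane arm on its intermembrane face (chr8:83566671-83571626), had the smallest p of all members. Its lowest, median and highest normalized counts were 413, 606 and 736 in anti-CD22 libraries and 645, 740 and 947 in IgG libraries. The 7 anti-CD22 libraries were all below the IgG median, although the highest of them, replicate 6, stood above 3 IgG libraries, so the groups overlapped. The log2 fold change was -0.42 (SE 0.13, limma adjusted p = 0.235), -0.26 with the trend removed and -0.22 without anti-CD22 replicates 1, 2 and 3. Ndufb11, a membrane arm subunit encoded on the X chromosome, had 500, 613 and 782 normalized counts (lowest, median, highest) in anti-CD22 libraries and 692, 773 and 848 in IgG libraries, a log2 fold change of -0.30 (SE 0.11, limma adjusted p = 0.294). Here 6 of the 7 anti-CD22 values were below the IgG median. Ndufv3, a small subunit beside the flavin site, had 448, 507 and 737 normalized counts in anti-CD22 libraries and 526, 628 and 776 in IgG libraries, a log2 fold change of -0.29 (SE 0.12, limma adjusted p = 0.336). Its highest anti-CD22 library, replicate 7, stood far above the next, at 528.

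The core subunits of the matrix arm, which carry out electron transfer, lay mostly close to 0. Ndufs1, the largest of them and the holder of several iron-sulfur clusters (chr1:63143596-63176833), had 1352, 1552 and 1886 normalized counts in anti-CD22 libraries and 1521, 1578 and 1643 in IgG libraries. The group medians nearly coincided, but the anti-CD22 libraries spread far wider, with an SD of 232 around 1596 against an SD of 39.7 around 1586 in IgG libraries (n = 7 each), and the IgG range lay wholly inside the anti-CD22 range. The log2 fold changes were -0.003 for Ndufs1, -0.11 for Ndufs3, -0.06 for the flavin-binding Ndufv1 and -0.05 for Ndufv2. Ndufs7 and Ndufs8, which hold the last iron-sulfur clusters before ubiquinone, stood lower at -0.25 and -0.19 (limma adjusted p = 0.374 and 0.349). With the trend removed they were at -0.08 and -0.05, and Ndufs8 was at -0.05 without anti-CD22 replicates 1, 2 and 3. For Ndufs7 the lowest, median and highest were 1022, 1722 and 1820 normalized counts in anti-CD22 libraries and 1648, 1771 and 1964 in IgG libraries, and its value without anti-CD22 replicates 1, 2 and 3 was -0.004. Ndufa10, an accessory subunit related to nucleoside kinases, was the single complex I member above 0, at 0.02, with 1172 ± 75.5 normalized counts in anti-CD22 libraries and 1160 ± 80.9 in IgG libraries (SD, n = 7 each).

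The levels of complex I genes differed widely per length. Ndufa9, which helps to hold the matrix arm on the membrane, was the highest at a mean of 3811 normalized counts per kilobase over all 14 libraries, and Ndufa5 the lowest of those tested at 210. Ndufs5, a subunit on the intermembrane face (chr4:123712710-123718202), was listed at 0 in all 14 libraries and entered no test. Part of its transcript is shared with 1 other gene, but Atp5g1, Atp5g2 and Atp5l, with larger shared parts, were not listed at 0. Why Ndufs5 was listed at 0 was not tested, and its level in these cells cannot be read from these counts.

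Complex II is succinate dehydrogenase, which also works in the TCA cycle. Of its 4 members 3 lay below 0, and no difference between them was tested. Its catalytic subunits were Sdha, which holds the flavin, and Sdhb, which holds the iron-sulfur clusters. Sdha had 8887, 9440 and 10543 normalized counts (lowest, median, highest) in anti-CD22 libraries and 8731, 9430 and 9982 in IgG libraries, a log2 fold change of 0.03 (SE 0.05, limma adjusted p = 0.794). The groups lay over each other. Sdhb had 2639, 2931 and 3405 in anti-CD22 libraries and 2953, 3186 and 3575 in IgG libraries, a log2 fold change of -0.12 (SE 0.07, limma adjusted p = 0.464). Of the membrane anchors, Sdhc (chr1:171127165-171150603) had 943, 1191 and 1356 normalized counts in anti-CD22 libraries and 1240, 1407 and 1571 in IgG libraries. Each of the 7 anti-CD22 values was below the IgG median, with replicates 4 and 7 inside the IgG range. The log2 fold change of Sdhc was -0.27 (SE 0.09, limma adjusted p = 0.247). Unlike that of most members it did not shrink with the trend removed, at -0.31, and it was -0.17 without anti-CD22 replicates 1, 2 and 3. The annotated transcript of Sdhc has 3171 bases, and whether its length bears on this was not tested. The other anchor, Sdhd, was at -0.12 (limma adjusted p = 0.456). Per kilobase, Sdhd was the highest of complex II, at 3653 normalized counts, and Sdhc the lowest, at 411.

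Complex III hands electrons from ubiquinol to cytochrome c. All 9 members lay below 0, at a median log2 fold change of -0.13, or -0.03 with the trend removed and -0.05 without anti-CD22 replicates 1, 2 and 3. The 5 small subunits had a median of -0.24, the core pair Uqcrc1 and Uqcrc2 one of -0.08, and the catalytic pair Cyc1 (cytochrome c1) and Uqcrfs1 (the Rieske iron-sulfur protein) one of -0.09. In that order their median transcript lengths were 535, 1774.5 and 1441.5 bases, and the medians with the trend removed -0.12, -0.02 and -0.01. The difference between these groups was not tested. Uqcrq, a small subunit that contacts cytochrome b (chr11:53427922-53430831), had 453, 588 and 748 normalized counts in anti-CD22 libraries and 639, 756 and 852 in IgG libraries. Again the 7 anti-CD22 values were all below the IgG median, with replicates 6 and 7 inside the IgG range. The log2 fold change was -0.35 (SE 0.12, limma adjusted p = 0.253), -0.30 with the trend removed and -0.18 without anti-CD22 replicates 1, 2 and 3. Uqcr11, another small subunit, had 471, 586 and 757 in anti-CD22 libraries and 604, 690 and 812 in IgG libraries, a log2 fold change of -0.26 (SE 0.11, limma adjusted p = 0.349), which became -0.10 with the trend removed. The core subunit Uqcrc1, the highest of complex III at 5305 normalized counts per kilobase, had a log2 fold change of -0.13 (SE 0.06, limma adjusted p = 0.374), while Uqcrq was the lowest at 440 per kilobase. Uqcrc1 was at -0.03 with the trend removed and at -0.05 without anti-CD22 replicates 1, 2 and 3. Cyc1 stood at -0.10 and Uqcrfs1 at -0.07, with adjusted p by limma of 0.502 and 0.671, and the trend-removed values were -0.01 and -0.02.

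Complex IV, cytochrome c oxidase, had all 10 members below 0 and, at -0.20, the lowest median of the 5 complexes, which was -0.12 with the trend removed and -0.09 without anti-CD22 replicates 1, 2 and 3. Its nuclear subunits surround the mitochondrially encoded core and are all accessory. Cox4i1, the main isoform of the largest of these, which binds adenine nucleotides (chr8:120668222-120674207), was the most abundant of them at 5870 normalized counts per kilobase. It had 3059, 4266 and 4565 normalized counts (lowest, median, highest) in anti-CD22 libraries and 4468, 4549 and 5299 in IgG libraries. A single anti-CD22 library, replicate 6, reached the IgG range. The log2 fold change was -0.26 (SE 0.08, limma adjusted p = 0.237), and -0.11 both with the trend removed and without anti-CD22 replicates 1, 2 and 3. Cox6a1, the widespread isoform of subunit VIa, had 1027, 1534 and 1855 in anti-CD22 libraries and 1569, 1750 and 2430 in IgG libraries, a log2 fold change of -0.32 (SE 0.12, limma adjusted p = 0.309). With the trend removed Cox6a1 was at -0.16, and without anti-CD22 replicates 1, 2 and 3 at -0.13. With Ndufb7, Sdhc and Uqcrq it made up the 4 lower members (5.33%) at an unadjusted limma p under 0.05 with the trend removed. Of all genes 4.97% were lower at that threshold, so this share is close to that of all genes. Cox8a, the smallest subunit, had 881, 1325 and 1426 in anti-CD22 libraries and 1145, 1483 and 1712 in IgG libraries, a log2 fold change of -0.27 (SE 0.11, limma adjusted p = 0.348). That value was -0.11 with the trend removed and -0.07 without anti-CD22 replicates 1, 2 and 3. Every anti-CD22 library was below the IgG median for Cox8a, and the ranges overlapped. Cox5a stood at -0.20 (limma adjusted p = 0.427), and Cox7b, the lowest of complex IV per length at 358 normalized counts per kilobase, at -0.03.

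Complex V turns the proton flow into rotation of a c ring and a central stalk inside the F1 head, held by a peripheral stalk. Of 17 members, 14 lay below 0 and 3 above, at a median log2 fold change of -0.16, which was -0.08 without IgG replicate 7, -0.07 with the trend removed and -0.05 without anti-CD22 replicates 1, 2 and 3. The head subunits were the most abundant members of all, Atp5b at 9971 and Atp5a1 at 6233 normalized counts per kilobase, and lay near 0 at -0.07 and -0.06. Atp5b, the catalytic subunit, had 17785, 18653 and 19515 normalized counts in anti-CD22 libraries and 18779, 19471 and 20621 in IgG libraries, and 6 of 7 anti-CD22 libraries were below the IgG median. The central stalk held members on either side. Atp5d, its delta subunit (chr10:80138632-80145818), had 1350, 1621 and 1955 in anti-CD22 libraries and 1756, 1897 and 2028 in IgG libraries, with anti-CD22 replicate 6 alone inside the IgG range. Its log2 fold change was -0.24 (SE 0.08, limma adjusted p = 0.239), and -0.07 with the trend removed. Atp5c1, the gamma subunit that forms the rotating shaft (chr2:10056016-10080510), had 3677, 3893 and 4429 in anti-CD22 libraries and 3293, 3670 and 4053 in IgG libraries. The IgG median was exceeded by all 7 anti-CD22 libraries. Its log2 fold change was 0.08 (SE 0.06, limma adjusted p = 0.590), and 0.14 with the trend removed, where it was the 1 higher member at an unadjusted p under 0.05. Of all 11582 genes in that fit, 467 were higher at the same threshold.

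Of the peripheral stalk, Atp5h had 1060, 1346 and 1508 normalized counts in anti-CD22 libraries and 1390, 1480 and 1652 in IgG libraries, a log2 fold change of -0.21 (SE 0.08, limma adjusted p = 0.315). That value was -0.12 both with the trend removed and without anti-CD22 replicates 1, 2 and 3. Atp5o, the subunit that gives oligomycin sensitivity, was at -0.20 (limma adjusted p = 0.324), and Atp5f1 at 0.05. For Atp5h and Atp5o, 6 of the 7 anti-CD22 values were below the IgG median, and for Atp5f1 3 of 7. The genes Atp5g1, Atp5g2 and Atp5g3 encode the same mature c subunit with different targeting peptides and had log2 fold changes of -0.24, -0.10 and -0.06. Atp5g1 had 687, 931 and 1121 normalized counts in anti-CD22 libraries and 866, 1114 and 1217 in IgG libraries (limma adjusted p = 0.363). With the trend removed, Atp5g2 and Atp5g3 came to lie above 0, at 0.04 and 0.02. Of the stretches of 100 bases in their transcripts, 57.3% in Atp5g1 and 86.4% in Atp5g2 occur in other genes, against 0% in Atp5g3, so that the counts of the first pair are uncertain. The same caution holds for other members with shared stretches, among them Atp5l (61.3%), Cox7c (44.4%), Ndufb4 (33.4%) and Atp5h (32.7%). The coupling factor Atp5s was the highest member of all by log2 fold change, at 0.20 (SE 0.17, limma adjusted p = 0.628), and the lowest of complex V per length, at 166 normalized counts per kilobase. Its range of 217 to 362 normalized counts in anti-CD22 libraries overlapped widely with 146 to 308 in IgG libraries.

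**Figure D2:**
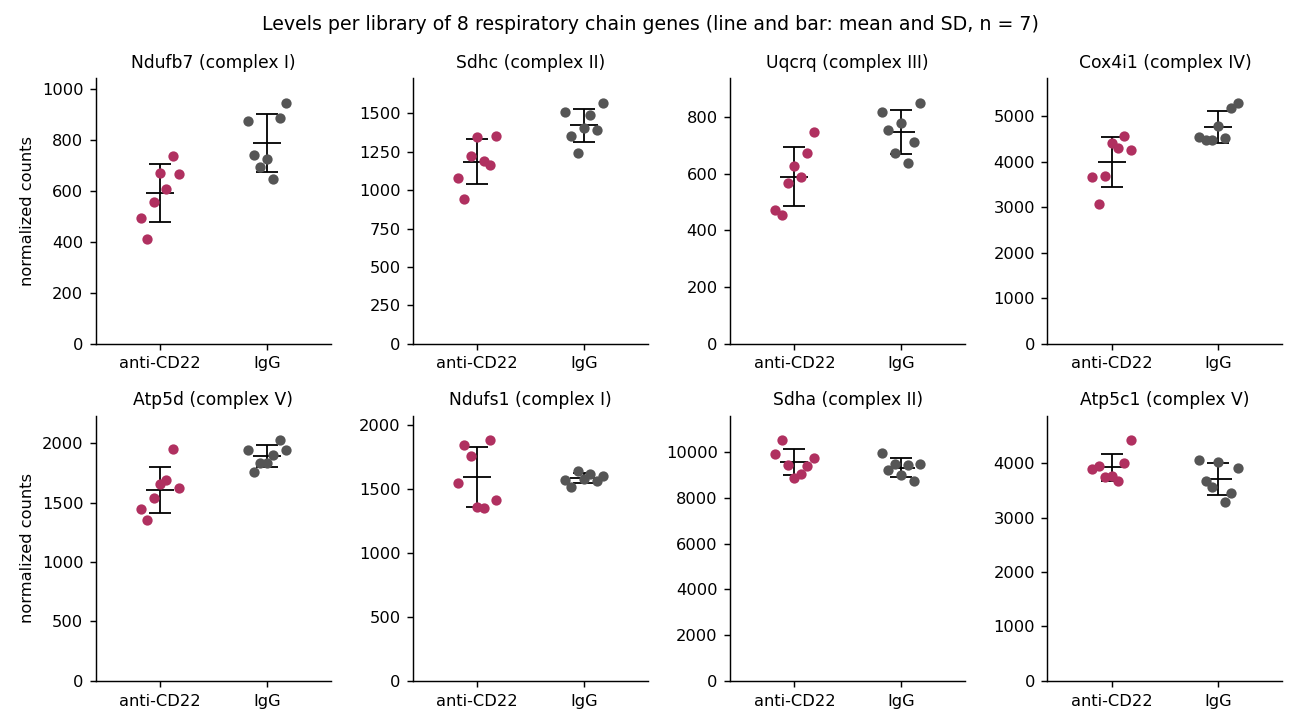
Normalized counts of 8 respiratory chain genes in each library, anti-CD22 on the left and IgG on the right of each panel, with the mean and SD of 7 libraries. In Ndufb7, Sdhc, Uqcrq, Cox4i1 and Atp5d the anti-CD22 libraries sit lower with overlap, in Ndufs1 and Sdha the groups lie over each other, and in Atp5c1 the anti-CD22 libraries are all above the IgG median of 3670.

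Largely the same libraries were high or low in each complex. Averaged over the 75 members as log2 values centred per gene, the anti-CD22 libraries 1 to 7 stood at -0.21, -0.32, -0.07, 0.03, -0.14, -0.08 and 0.23, and the IgG libraries 1 to 7 at 0.14, 0.06, -0.08, 0.08, -0.07, 0.09 and 0.34. Anti-CD22 replicate 2 was the lowest and replicate 7 the highest of that group, and 6 of the 7 anti-CD22 values were below the IgG median of 0.08. The group means were -0.08 ± 0.18 for anti-CD22 and 0.08 ± 0.14 for IgG (SD, n = 7 each), a difference of -0.16 that became -0.08 with the trend removed. Among single members, anti-CD22 replicate 2 was the lowest anti-CD22 library for 45 of 75 and replicate 7 the highest for 56 of 75, while IgG replicate 7 was the highest IgG library for 44 of 75. The share of all normalized counts that fell on the members was 0.447% to 0.532% in anti-CD22 libraries and 0.485% to 0.548% in IgG libraries. IgG replicate 7 was also the library with the fewest recovered reads, and without it the median log2 fold change of the members was -0.12.

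**Figure D3:**
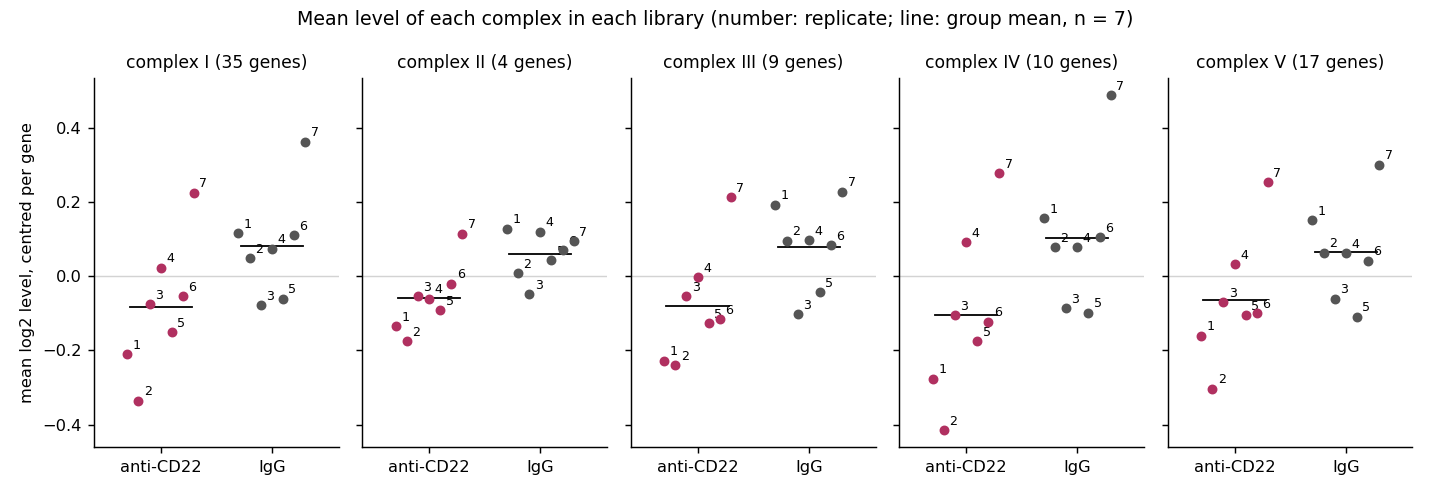
Mean log2 level of the tested genes of each complex in each library, centred per gene over all 14 libraries, anti-CD22 on the left and IgG on the right; numbers are replicates and lines are group means of 7 libraries. In each panel anti-CD22 replicates 1 and 2 are the lowest of their group and replicate 7 the highest, and the groups overlap.

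Within the members, the difference between the groups followed transcript length. The 25 members with the shortest transcripts (315 to 625 bases) had a median log2 fold change of -0.23, the 25 of middle length (645 to 1079 bases) one of -0.20 and the 25 longest (1110 to 3171 bases) one of -0.07. All 25 members were below 0 in the shortest and in the middle set, and 20 of 25 in the longest. Across the 75 members, which share their libraries, the Spearman correlation of log2 fold change with length was 0.51, against 0.37 across all genes tested with a known length. With the trend removed it was 0.41 across members and 0.01 across all genes. The spread followed length as well: the median SD within groups on the log2 scale was 0.27 in the shortest set, 0.19 in the middle and 0.12 in the longest. Level was not held equal there: Atp5k (371 bases, SD 0.61) averaged 79.2 normalized counts and Atp5b (1916 bases, SD 0.05) 19105. Cox4i1, short at 745 bases, averaged 4373 with an SD of 0.16. Whether the spread goes with length or with level was not tested. The length difference between libraries and the treatment cannot be told apart in these groups. A length is that of 1 annotated transcript per gene, and which transcripts these cells used was not analysed here.

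**Figure D4:**
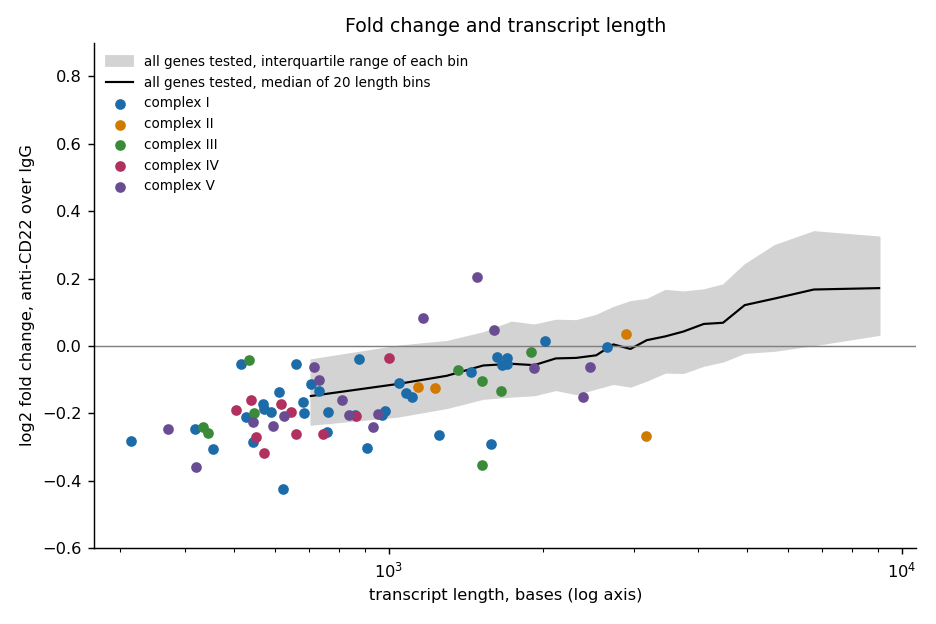
Log2 fold change, anti-CD22 over IgG, of each respiratory chain gene against the length of its transcript (log axis), coloured by complex, with the median and the interquartile range of all genes tested in 20 bins of length. The members sit at the short end, where the median of all genes is below 0 too.

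**Figure D5:**
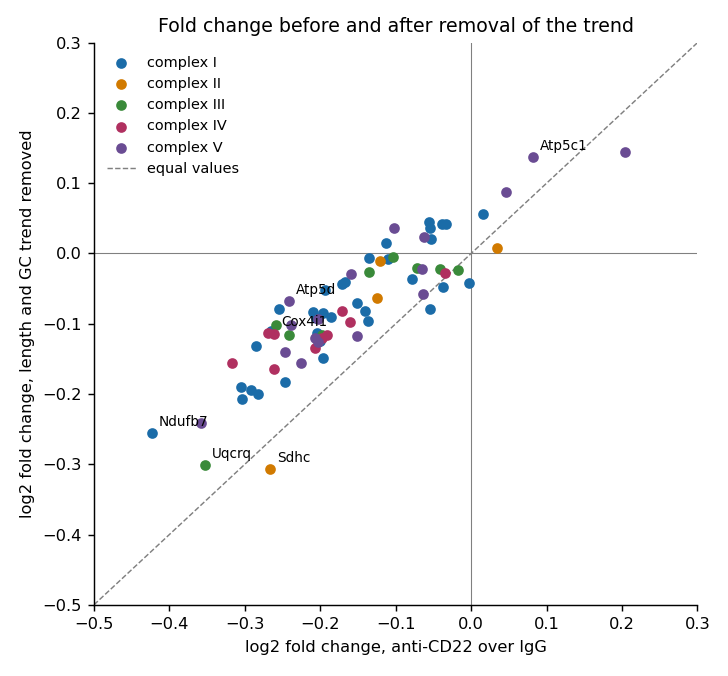
Log2 fold change of each respiratory chain gene as measured (horizontal) and with the trend on length and GC content removed (vertical), coloured by complex, the dashed line marking equal values. Most points lie above the line and closer to 0, while Sdhc lies below it, at -0.27 and -0.31.

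Genes that act with the respiratory chain were read from lists set down with the members. Of their genes 0 passed a limma adjusted p of 0.05 in either direction, where 0.00859% of all genes tested passed. All 6 tested subunits and isoforms outside the symbol rule lay below 0, at a median log2 fold change of -0.14. With the trend removed all 6 still did (median -0.12). Without anti-CD22 replicates 1, 2 and 3 it was 4 of 6 (median -0.08). This list included Cox7a2l, a factor in the joining of complexes into supercomplexes (-0.18, limma adjusted p = 0.423), and Cox6a2, an isoform best known from heart and skeletal muscle. Cox6a2 was low, with 90.4 ± 15.8 normalized counts in anti-CD22 libraries and 141 ± 53.4 in IgG libraries (SD, n = 7 each, log2 fold change -0.57, limma adjusted p = 0.336). Of the assembly factors for complex I, 8 of 14 lay below 0 (median -0.07), of those for complex III 4 of 6 (-0.10), for complex IV 13 of 18 (-0.05) and for complex V 2 of 3 (-0.03). With the trend removed these counts were 8, 3, 11 and 1, and the medians -0.02, 0.02, -0.03 and 0.02. Without anti-CD22 replicates 1, 2 and 3 they were 8, 3, 7 and 1, with medians of -0.06, 0.00, 0.04 and 0.05, so that the median for complexes IV and V lay above 0 there. The 4 factors for complex II were all below 0 (median -0.16, or -0.20 with the trend removed), from -0.19 for Sdhaf2, which inserts the flavin into Sdha. Without anti-CD22 replicates 1, 2 and 3, 3 of these 4 lay below 0 (median -0.10). Coa3 and Coa5, both needed to build complex IV, stood at -0.21 and 0.18 (limma adjusted p = 0.331 and 0.349), or -0.10 and 0.09 with the trend removed.

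The TCA cycle, which supplies the chain with electrons, had 13 of 17 members below 0 but a median of -0.03. Its smallest p was that of Mdh2, the mitochondrial malate dehydrogenase, with 5182 ± 509 normalized counts in anti-CD22 libraries and 5958 ± 245 in IgG libraries (SD, n = 7 each), a log2 fold change of -0.21 (limma adjusted p = 0.231), or -0.11 with the trend removed. Dlst, of the oxoglutarate dehydrogenase complex, stood at 0.14. The list of cytochrome c and ubiquinone synthesis had 7 of 12 below 0 and a median of -0.02, or 0.03 with the trend removed and 0.05 without anti-CD22 replicates 1, 2 and 3. Coq10b, which binds ubiquinone, had 759 ± 103 normalized counts in anti-CD22 libraries and 607 ± 56.7 in IgG libraries (SD, n = 7 each), a log2 fold change of 0.32 (limma adjusted p = 0.239). Regulators of mitochondrial biogenesis lay the other way, with 10 of 13 above 0 and a median of 0.11. Their transcripts are long, with a median of 3755 bases, and with the trend removed 8 of 13 lay above 0 (median 0.09), while without anti-CD22 replicates 1, 2 and 3 the number below 0 was 6 (median 0.08). Tfam, which packages mitochondrial DNA and starts its transcription, stood at 0.26 (limma adjusted p = 0.310), or 0.16 with the trend removed, while Polrmt, the mitochondrial RNA polymerase, stood at -0.50 (limma adjusted p = 0.289). Nrf1 and Gabpa, whose products bind the motifs searched above, were at -0.02 and 0.04, or 0.03 and -0.13 with the trend removed, and are named here after their values were seen. Outer membrane and import genes had 9 of 14 below 0 and a median of -0.04, but 6 of 14 and a median of 0.02 without anti-CD22 replicates 1, 2 and 3. The prohibitin Phb stood at -0.23 and the import receptor Tomm70a at 0.23, or at -0.15 and 0.02 with the trend removed.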

How the data were processed

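RNA of sorted microglia was sequenced as paired reads of 100 bases after SMART-Seq v4 cDNA synthesis and Nextera XT tagmentation, per the labels. Per the submitters' processing notes, bcl2fastq, STAR, the mm10 build and DESeq2 were used; the sources used here give neither versions nor the gene annotation. What the authors deposited is a signal: counts per gene that the authors divided by 1 size factor per library. Groups came from the sample titles. Raw reads were not analysed here.

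Of 24421 entries, 27 with names turned into dates were left out, at most 0.149% of a library's counts. Genes averaging at least 10 were tested with limma after log2 transformation of the normalized count with 1 added, with a mean-variance trend and Benjamini-Hochberg adjustment over all 11646 genes. Over these genes the SE of the log2 fold changes had a median of 0.14. The deposited values were whole multiples of a step, within 0.1 reads for 100% of values, and gave whole read counts in 13 libraries. In anti-CD22 replicate 3 the step was too close to 1 for that, so the edgeR quasi-likelihood and DESeq2 tests leave it out. The lowest chi-square per gene between replicates was 17.9, so replicates differed by more than sampling noise. Replicate numbers did not pair the groups: same-numbered deviations correlated between -0.145 and 0.16.

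Transcript lengths, GC content and gene coordinates came from GENCODE vM21 (GRCm38, the assembly of mm10), from 1 principal transcript per gene. The trend on both was removed per library with splines of 4 degrees of freedom. Shared stretches of 100 bases were counted over all its transcripts, and promoters came from RefSeq. The members, the lists and the rule for named genes (in each complex the smallest p, values above 0, core subunits, the Atp5g genes and the extremes of level per kilobase; 2 of each list) were chosen with earlier results of these data known. Some genes are counted in the totals but not reported here by name. The main test was tried on simulated data. Alternatives were other pseudocounts, filters, scalings, variance models, weights, a replicate block, count models and leaving out each library. Python 3.11.15 (pandas 2.3.3, matplotlib 3.10.9) and R 4.3.3 (DESeq2 1.42.0, edgeR 4.0.16, limma 3.58.1) were used.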

Additional observations from a re-analysis of the deposited data

Results flagged for a closer look

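The highest or lowest library of each group was compared with its nearest neighbour for the named genes and for the mean level of each complex, in 122 groups of 7. A library was singled out where that gap took a larger share of the group's range than Dixon's 95% critical value, which chance gives in about 1 in 20 groups, and 4 groups were so marked. Ndufv3 stood at 737 normalized counts in anti-CD22 replicate 7, where the next anti-CD22 library had 528. Ndufs3, a core subunit of complex I, stood at 1977 in IgG replicate 1, where the next IgG library had 1621. Ndufv1 stood at 2646 in IgG replicate 5, where the next had 2200, and the assembly factor Coa5 at 2636 in the same library, where the next had 2220.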

How the results depend on the processing

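In every setting tried, 0 members passed an adjusted p of 0.05. The count over all genes, reported as 1, was 8 with array weights, 32 by DESeq2, 4 at a threshold of 0.10 and 0 without the mean-variance trend, with the length and GC trend removed by principal or by longest transcripts, without the 3 libraries of highest length correlation, and by edgeR. It ranged from 0 to 43 when single libraries were left out. With the replicate block it was 2, with or without the trend removed. The members lower at an unadjusted p under 0.05 with the block numbered 22 (6.73% of all genes), and 4 (5.03%) with the trend also removed. The medians kept their direction in all settings, and that of complex II was -0.0375 with the trend removed, also with the block added, and -0.0379 by longest transcripts. Leaving out single libraries gave medians from -0.22 to -0.12 in complex I, -0.16 to -0.10 in II, -0.17 to -0.11 in III, -0.28 to -0.15 in IV and -0.23 to -0.08 in V. Of 55 named genes, 10 changed sign in some setting, and the cause was not tested. Their log2 fold changes in the main fit ran from -0.10 (Cyc1 and Atp5g2) to 0.05 (Atp5f1). With the trend removed (the same with the block added), Atp5g2 was at 0.0363, Atp5g3 at 0.0233, Ndufv1 at 0.0452 and Atpaf2 at 0.0203. By longest transcripts these were 0.0805, 0.0145, 0.0559 and 0.0389 in that order, with Atp5f1 at -0.0500 and Cyc1 at 0.0390. Without anti-CD22 replicates 1, 2 and 3, Atp5f1 was at -0.0221, Sdha at -0.0093, Atp5g2 at 0.0391, Atp5g3 at 0.0273, Ndufv1 at 0.0499 and Atpaf2 at 0.0717. Ndufs1 was at 0.0091 after rescaling to the same total and Cd22 at -0.0319 with array weights. Leaving out single libraries moved Ndufs1 between -0.0455 and 0.0345, Ndufa10 between -0.0071 and 0.0409, Atpaf2 between -0.0810 and 0.0090 and Cd22 between -0.0629 and 0.0791.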
